A study of Mus musculus with 8 samples.

Results

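Abcc8, Kcnj11, Cacna1d and Cacna2d1 encode subunits of the ATP-sensitive potassium (KATP) channel and of the voltage-gated calcium channel of islet cells. All probe sets annotated to these 4 genes, by their current or an older symbol, were taken, whatever their values. They numbered 7 of the 24965 probe sets on the 2 array types, 4 of 12488 on MG-U74A and 3 of 12477 on MG-U74B. Total RNA of mouse pancreatic islets was hybridised to these Affymetrix oligonucleotide arrays, 8 arrays in all. Mice carrying a knock-out of a single gene were set against wild type mice, with 2 arrays of each genotype on each array type. The labels call these replicates and give no strain, age, sex or treatment, nor the cells in which the gene was lost. Whether islets of several mice were pooled is also not stated.

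A beta cell turns glucose into an electrical signal through these channels. At rest, potassium leaves through KATP channels and keeps the cell polarised. When glucose is metabolised, ATP closes the channels, the membrane depolarises, voltage-gated calcium channels open, and the calcium that enters triggers the release of insulin granules. The KATP channel pairs a pore subunit, encoded by Kcnj11, with the sulfonylurea receptor encoded by Abcc8, which senses nucleotides and binds the sulfonylurea drugs used in diabetes. Cacna1d encodes a pore-forming subunit of an L-type calcium channel. Cacna2d1 encodes an auxiliary alpha2delta subunit, which helps calcium channels reach the cell surface and is the target of gabapentin.

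All 7 probe sets had lower intensities on both knock-out arrays than on both wild type arrays. Of these, 5 were bright enough to be tested, and 4 of the 5 fell past the threshold, an adjusted p of 0.05 from limma fitted across all tested probe sets of an array type. On MG-U74A 2 of 3 fell, with a median log2 change of -2.15, while 29% of the 7516 tested probe sets fell and the median over all of them was -0.09. That -2.15 is the change of 1 Cacna2d1 probe set, 104510_at, which also counts among the falls. It was tested only because of its wild type level, and its size depends on the constant added. On MG-U74B 2 of 2 fell, with a median log2 change of -1.73, while 8.87% of the 7861 tested probe sets fell and the median over all was 0.11. Over all tested probe sets, both knock-out arrays lay below both wild type arrays for 43.9% on MG-U74A and for 28.8% on MG-U74B. A tested probe set had a mean intensity over the 4 arrays of at least 62.5. Changes are differences of log2(intensity + 25), knock-out minus wild type, with their standard error, so the change of a dim probe set is understated.

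The genotypes also differed over the array as a whole. Arrays of one genotype correlated across probe sets at a Spearman rho of 0.956 (knock-out) and 0.979 (wild type) on MG-U74A. On MG-U74B rho was 0.920 (knock-out) and 0.932 (wild type). Between genotypes rho was 0.865 to 0.868 on MG-U74A and 0.824 to 0.842 on MG-U74B. For Gapdh the 3' probe set over the 5' one, a sign of how complete the labelled RNA was, lay between 0.900 and 0.949 on the knock-out arrays and between 3.07 and 3.22 on the wild type arrays. The bacterial control transcript BioB averaged 4044 and 3596 on the knock-out MG-U74A arrays and 171 and 195 on the wild type ones. Another such control, BioC, differed less and in the other direction, at 311 and 265 on the knock-out and 414 and 402 on the wild type MG-U74A arrays. These values split by genotype on every array, so genotype and the handling of the RNA and arrays cannot be told apart. The p-values reflect only how far these arrays spread, in part perhaps for technical reasons, and by exact permutation a 2 against 2 design has 0.333 as its smallest p. In a whole islet, fewer cells of a type and less RNA per cell cannot be told apart either.

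**Figure D1:**
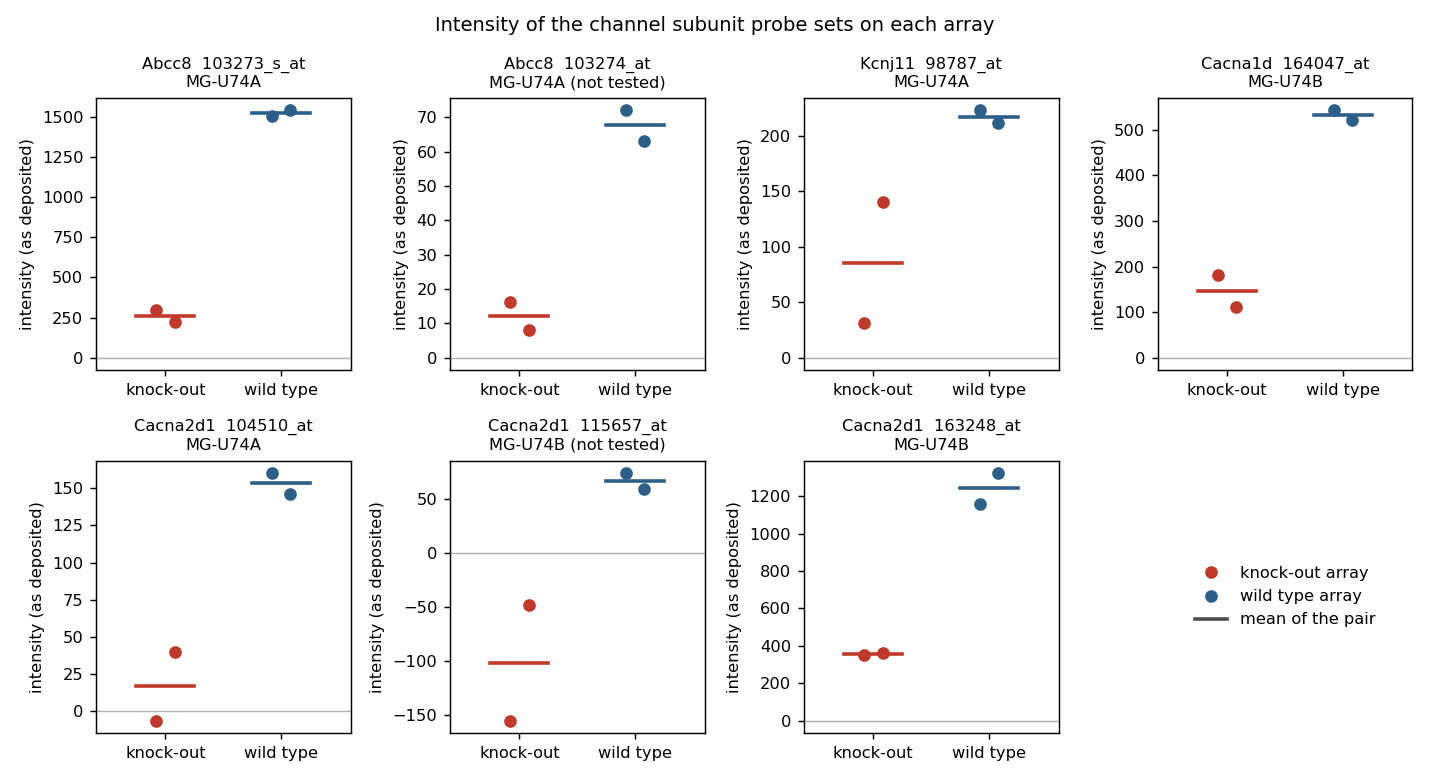
Deposited intensity of each probe set of the 4 channel genes on each array, knock-out arrays left of wild type arrays in every panel and lines at the mean of each pair. All 7 probe sets lie lower on both knock-out arrays, and the Kcnj11 knock-out arrays lie far apart, at 31.4 and 139.8.

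Abcc8, the sulfonylurea receptor, fell well below its wild type level. Its brighter probe set, 103273_s_at on MG-U74A, read 297 and 225 on the knock-out arrays, against 1504 and 1539.5 on the wild type arrays. The knock-out arrays were both low, and the gap to the wild type arrays was wide beside the spread within either genotype. Knock-out islets averaged 261 ± 50.6 and wild type islets 1522 ± 24.96 (SD, n = 2 each), so that the knock-out level was 17.1% of the wild type level. The log2 change was -2.45 ± 0.14, with a limma adjusted p of 0.000601. Only 1.30% of the tested probe sets of MG-U74A had a lower change. Its call held under all 13 alternative settings, with log2 changes between -2.63 and -2.27 and adjusted p between 0.000474 and 0.00871. The suffix _s_at marks a probe set that can match more than 1 transcript.

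The other Abcc8 probe set, 103274_at, read 16.1 and 8.10 on the knock-out arrays, against 72 and 63.2 on the wild type arrays. The groups did not overlap, but its mean of 39.9 lay below the limit for testing. With no limit it fell as well, by 1.33 on the log2 scale, with a limma adjusted p of 0.0261. Its knock-out readings lay under the constant of 25, so that size depends on the constant.

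Kcnj11, the pore of the KATP channel, read 31.4 and 139.8 on the knock-out arrays, against 223 and 211 on the wild type arrays. Both knock-out values were the lower, but they lay much farther apart than the wild type values. Knock-out islets averaged 85.6 ± 76.7 and wild type islets 217 ± 8.27 (SD, n = 2 each). The log2 change of Kcnj11 was -1.33 ± 0.55 and missed the threshold, with a limma adjusted p of 0.116. Left without knock-out replicate 1, its change was -0.55 with an adjusted p of 0.0361, and without knock-out replicate 2 it was -2.10 with an adjusted p of 0.00632. In those fits the lone knock-out array was assumed to vary like the wild type pair. The size of the Kcnj11 difference thus depended on the array, between -2.10 and -0.55, while its sign did not. Kcnj11 and Abcc8 lie next to each other on chromosome 7, with no other protein-coding gene between them.

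A second set of KATP subunits moved the other way. Abcc9, the sulfonylurea receptor of heart, skeletal and smooth muscle channels, read 208 and 175 on the knock-out MG-U74A arrays, against 37.9 and 82.9 on the wild type ones (probe set 97172_s_at). It rose by 1.39 ± 0.31 on the log2 scale (limma adjusted p 0.0247). Its wild type mean of 60.4 lay below the limit for testing, so it was tested only because of its knock-out level. Over the alternatives its change ranged from 1.00 to 1.78. On MG-U74B the Abcc9 probe set 110392_at read 757 and 674 on the knock-out arrays, against 266 and 229.6 on the wild type arrays, a rise of 1.44 ± 0.19 (adjusted p 0.0131). Both probe sets thus gave the same direction with no overlap between genotypes. The last Abcc9 probe set, 164475_i_at, read -27.3 and 15.4 in knock-out and 4.2 and -19.6 in wild type, too low to be tested.

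Kcnj8, the pore subunit that partners Abcc9 in vascular smooth muscle, read 135 and 187 on the knock-out arrays, against 79.3 and 70.5 on the wild type arrays. It rose by 0.88 ± 0.20 on the log2 scale (limma adjusted p 0.0255). Abcc9 on MG-U74A lost its call with no limit on low values and without knock-out replicate 1, knock-out replicate 2 or wild type replicate 1 (adjusted p 0.0967, 0.116, 0.0885 and 0.0529). Kcnj8 lost it with no limit and without either wild type replicate (0.0806, 0.0944 and 0.122), and Abcc9 on MG-U74B when any 1 array was left out (0.0569 to 0.111). Of the 4 KATP family genes on MG-U74A, 2 rose, 1 fell and 1 missed the threshold, for a median of -0.22, and 23.9% of all tested probe sets rose there. On MG-U74B, where only Abcc9 was present, it rose, as did 8.59% of all tested probe sets.

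Most smooth muscle markers on MG-U74A rose beside Abcc9 and Kcnj8. Of 9 markers 7 were tested, 5 rose, 2 missed the threshold and none fell, for a median of 1.03 on the log2 scale, with 23.9% of all tested probe sets rising. Acta2, the actin of smooth muscle, read 536 and 727 on the knock-out arrays, against -3.20 and -55.4 on the wild type arrays, and Cnn1, calponin, read 271 and 433 against -27.9 and -20.6. The 9 markers summed to 6724 to 6991 on the knock-out arrays and 4776 to 4798 on the wild type arrays. Both Acta2 and Cnn1 were thus at or below 0 on both wild type arrays, and no marker was at or below 0 on both knock-out arrays. On MG-U74B the 2 tested smooth muscle markers missed the threshold, with log2 changes of 0.40 for Myh11 and -2.46 for Mylk, for which the MG-U74A probe set had risen by 1.03. The part of smooth muscle in the rise of Abcc9 and Kcnj8 was not tested.

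**Figure D2:**
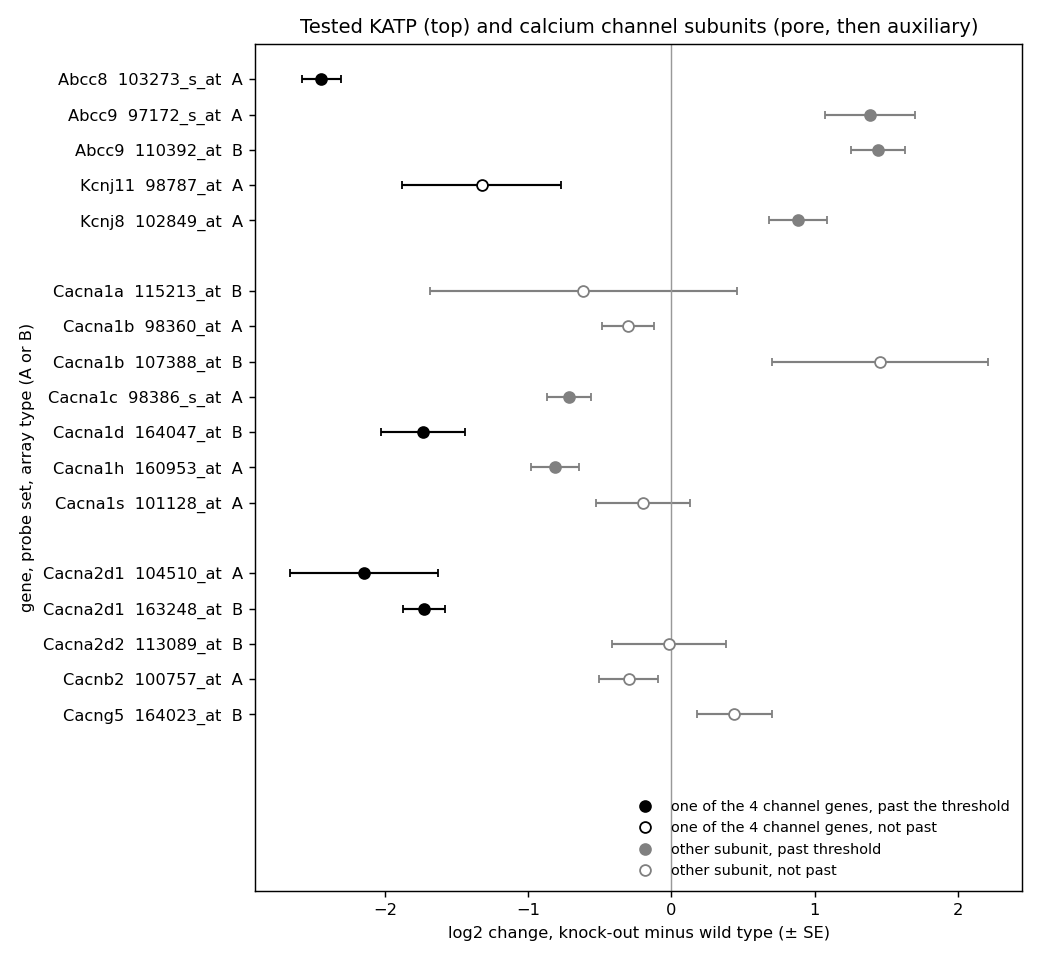
Log2 change, knock-out minus wild type, of the tested probe sets of all KATP and voltage-gated calcium channel subunits, with standard errors (2 arrays a genotype) and the array type as A or B. Abcc8, Cacna1d and Cacna2d1 lie at -1.73 or below, and Abcc9 and Kcnj8 lie above 0.

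Cacna1d, the L-type pore subunit, was measured by 1 probe set, 164047_at on MG-U74B. It read 181 and 110.5 on the knock-out arrays, against 542 and 521 on the wild type arrays. The groups lay far apart, though the knock-out arrays spread more than the wild type ones. Knock-out islets averaged 146 ± 49.7 and wild type islets 531 ± 15.3 (SD, n = 2 each), which is a 3.65-fold higher wild type level. The log2 change was -1.74 ± 0.29, with a limma adjusted p of 0.0232, and 5.25% of the tested probe sets of MG-U74B had a lower change. Cacna1d lost its call with no limit on low values (adjusted p 0.0823) and when any 1 array was left out. Left without knock-out replicate 1 or 2 its adjusted p was 0.0529 and 0.0522, and without wild type replicate 1 or 2 it was 0.168 and 0.166. Its log2 change stayed between -2.04 and -1.43 over all 13 alternatives.

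Promoter windows at hand were those of Cacna1d and Cacna2d1, and they are shown because both genes fell. The windows run from 250 bases before to 50 bases after a gene's start, 5′ to 3′ on the gene's strand, from RefSeq on GRCm38.p6. The arrays' probe sets do not say which start of Cacna1d was in use. Capitals mark every match, on either strand, to the TATA box TATAAA, the GC box GGGCGG or the E-box CANNTG. Matches can overlap, as in the run TTTATAAA, which holds TATAAA on both strands, and in the runs of GC boxes.
Cacna1d, chr14:30491107-30491406, minus strand: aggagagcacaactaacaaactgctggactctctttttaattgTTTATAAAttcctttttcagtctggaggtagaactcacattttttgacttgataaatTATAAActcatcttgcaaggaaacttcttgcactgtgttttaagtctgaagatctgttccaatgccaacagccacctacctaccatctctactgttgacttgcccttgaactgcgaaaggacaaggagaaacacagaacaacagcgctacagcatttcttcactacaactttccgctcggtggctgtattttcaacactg
Cacna1d, chr14:30353437-30353736, minus strand: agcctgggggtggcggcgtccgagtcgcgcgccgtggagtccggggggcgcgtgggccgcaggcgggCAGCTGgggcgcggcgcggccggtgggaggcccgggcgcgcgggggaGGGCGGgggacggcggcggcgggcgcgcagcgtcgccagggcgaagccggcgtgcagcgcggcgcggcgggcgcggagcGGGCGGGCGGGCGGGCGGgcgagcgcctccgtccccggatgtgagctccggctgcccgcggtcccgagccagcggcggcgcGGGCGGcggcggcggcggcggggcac
Cacna2d1, chr5:15934441-15934740, plus strand: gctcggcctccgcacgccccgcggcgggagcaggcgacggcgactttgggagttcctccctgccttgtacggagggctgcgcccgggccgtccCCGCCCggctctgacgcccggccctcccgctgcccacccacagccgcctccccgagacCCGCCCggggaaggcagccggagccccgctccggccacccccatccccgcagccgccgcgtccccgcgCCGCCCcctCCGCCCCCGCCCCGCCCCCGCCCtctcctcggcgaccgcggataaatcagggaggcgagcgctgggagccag

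The first Cacna1d window was poor in G and C, at 40.3%, with 4 CpG dinucleotides, 3 TATA box matches and no match to the GC box or E-box. The second was 87.3% G and C, higher than 99.98% of the 32851 promoters of that table, with 63 CpG dinucleotides, 6 GC box matches and 1 E-box match. The Cacna2d1 window was 80.0% G and C, with 42 CpG dinucleotides, 7 GC box matches and no match to the TATA box or E-box. The median promoter was 52.7% G and C with 7 CpG dinucleotides. A TATA box match was found in 13.6% of all promoters, a GC box match in 35.7% and an E-box match in 72.3%. The Cacna2d1 window and the second Cacna1d window are thus alike in base composition, and the first Cacna1d window is unlike both. A match of letters is a description of these windows and shows no binding.

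Among the other pore subunits, Cacna1c, which encodes the other main L-type pore of islet cells, read 265 and 201 on the knock-out MG-U74A arrays, against 419 and 373 on the wild type ones. It fell by 0.71 ± 0.15 on the log2 scale (limma adjusted p 0.0218). Cacna1h, a T-type pore, read 72.8 and 95.2 in knock-out, against 165.5 and 165.8 in wild type, and fell by 0.81 ± 0.17 (adjusted p 0.0195). Both genes lost their call with no limit on low values (adjusted p 0.0817 and 0.0575) and without either wild type replicate (0.0741 to 0.117).

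The remaining pore genes gave no call. Cacna1b, an N-type pore, changed by -0.30 ± 0.18 on MG-U74A (limma adjusted p 0.230) but by 1.45 ± 0.75 on MG-U74B (0.240), so its 2 probe sets pointed in opposite directions. Cacna1s, the skeletal muscle pore, changed by -0.20 ± 0.33 (adjusted p 0.646). Cacna1a, the P/Q-type pore, changed by -0.62 ± 1.07 on MG-U74B (adjusted p 0.711), and its MG-U74A probe set was too low to be tested, at 12 and 7.30 in knock-out and 61.3 and 49 in wild type. Cacna1e and Cacna1g were too low to be tested. Of the pore genes, 2 of 4 tested fell on MG-U74A and 1 of 3, Cacna1d, on MG-U74B, and none rose, with medians of -0.51 and -0.62. Over all tested probe sets, 29% fell on MG-U74A and 8.87% on MG-U74B.

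Cacna2d1, the auxiliary alpha2delta subunit, had 3 probe sets. The bright one, 163248_at on MG-U74B, read 349 and 363 on the knock-out arrays, against 1159.8 and 1324 on the wild type arrays. The knock-out arrays nearly coincided and lay well under both wild type arrays. Knock-out islets averaged 356 ± 10.04 and wild type islets 1242 ± 116 (SD, n = 2 each), a 3.49-fold higher wild type level. The log2 change was -1.73 ± 0.15, with a limma adjusted p of 0.00740, and 5.32% of tested probe sets had a lower change. Left without wild type replicate 1 or 2 it lost its call (adjusted p 0.0999 and 0.105), and it held under the other 11 alternatives, within -1.82 to -1.64 over all 13.

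On MG-U74A the Cacna2d1 probe set 104510_at read -6.60 and 39.7 on the knock-out arrays, against 160.4 and 146 on the wild type arrays. It had a knock-out mean of 16.6 ± 32.7 and a wild type mean of 153 ± 9.97 (SD, n = 2 each). The log2 change was -2.15 ± 0.52 (limma adjusted p 0.0291). Its knock-out level was near the floor, so it was tested only because of its wild type level, and the change depends on the constant added. With a smaller constant, 0.25 times as large, it was -3.23 and missed the threshold (adjusted p 0.0675), and with a larger one it was -1.60. It also lost its call with no limit on low values (0.111) and without wild type replicate 1 or 2 (0.120 and 0.110), and with a stricter limit it was not tested.

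The third Cacna2d1 probe set, 115657_at on MG-U74B, read -155 and -48.4 on the knock-out arrays, against 73.6 and 58.5 on the wild type arrays. It was too low to be tested, and the groups did not overlap. Both knock-out readings were below 0, so no size of change is given. On each of the 3 Cacna2d1 probe sets both knock-out readings were thus the lower.

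**Figure D3:**
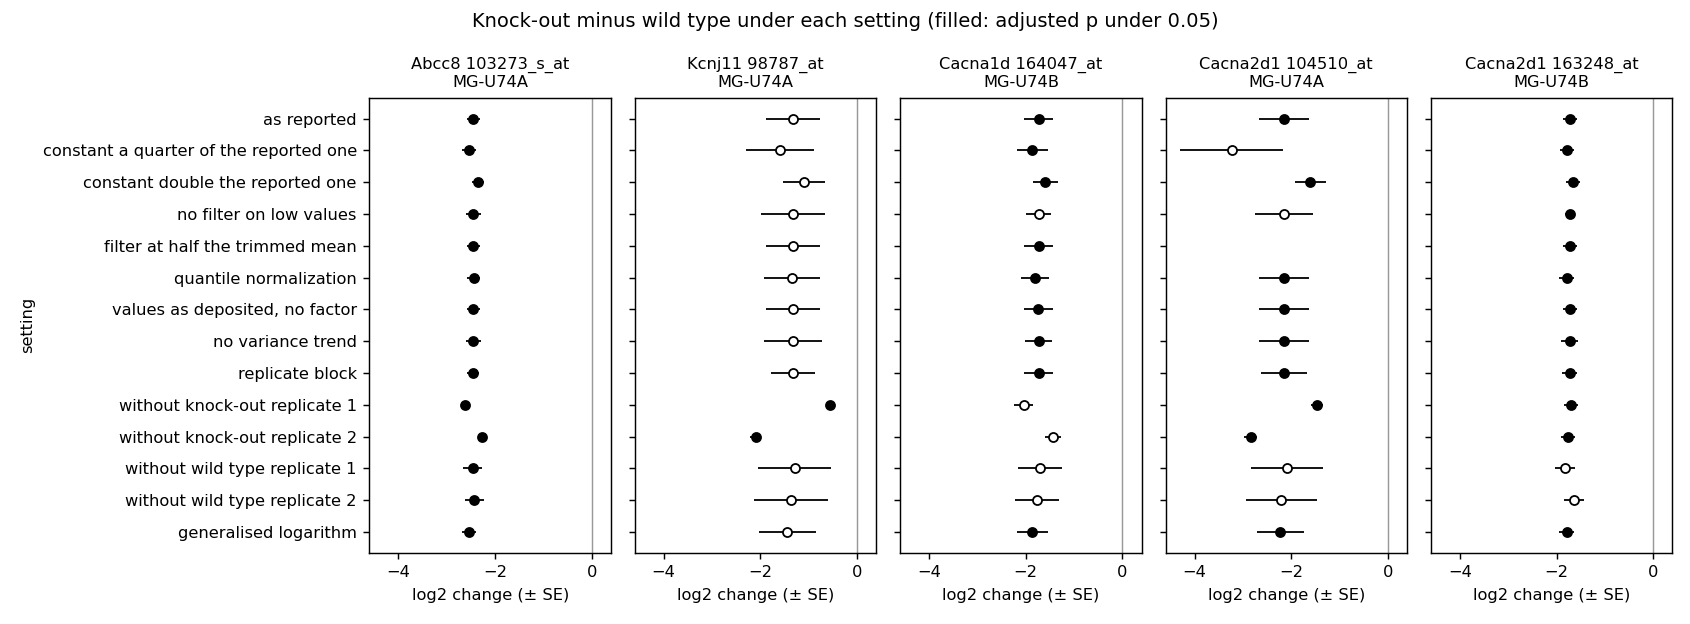
Log2 change, knock-out minus wild type, of the tested probe sets of the 4 channel genes under each setting, with standard errors, filled where past the threshold and with no point where not tested. Abcc8 was past it throughout and Kcnj11 only where a knock-out array was left out.

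The other auxiliary subunits gave no call. Cacnb2, a beta subunit, changed by -0.30 ± 0.20 on MG-U74A (limma adjusted p 0.284), Cacna2d2, a second alpha2delta subunit, by -0.02 ± 0.40 on MG-U74B (0.982), and Cacng5, a gamma subunit, by 0.44 ± 0.26 (0.298). Cacnb4, Cacna2d3, Cacng1, Cacng2, Cacng4 and Cacng6 were too low to be tested. Of the auxiliary genes, 1 of 2 tested on MG-U74A and 1 of 3 on MG-U74B fell, each time Cacna2d1, and none rose, with medians of -1.22 and -0.02. The shares of all tested probe sets that fell were 29% and 8.87%. Whether Cacna2d1 differs from the other subunits in its change was not tested.

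Upstream of the KATP channel lie glucose entry and metabolism. Of 7 such genes tested on MG-U74A 4 fell, 1 rose and 2 missed the threshold, for a median of -0.49, beside 29% falling and 23.9% rising over all tested probe sets. No test of the list was made. Slc2a2, the main glucose transporter of mouse beta cells, read 31.5 and 13.2 on the knock-out arrays, against 705 and 662 on the wild type arrays, and fell by 3.93 ± 0.23 (limma adjusted p 0.000674). Its knock-out readings were near the floor, and its change ranged from -4.67 to -3.35 over the alternatives. G6pc2, an islet glucose-6-phosphatase, fell by 2.24 ± 0.07 and Hadh, a fatty acid oxidation enzyme that restrains glutamate dehydrogenase, fell by 2.30 ± 0.06. Pfkl, a phosphofructokinase of glycolysis, rose by 0.82 ± 0.10. On MG-U74B the 1 gene tested, Slc25a22, missed the threshold.

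Among other channels of islet excitability, 4 of 9 tested genes on MG-U74A fell and 2 rose, and the median log2 change was -0.49. The chloride transporter gene Clcn3 fell by 1.34 ± 0.12 on its brightest probe set and the potassium channel gene Kcnk1 fell by 0.56 ± 0.07. The cation channel gene Hcn2 fell by 0.72 ± 0.08 on its brighter probe set. The other Hcn2 probe set was too low to be tested, at -117.9 and -100 in knock-out and 3.4 and -20.8 in wild type. The other tested Clcn3 probe sets changed by -1.04, -0.62 and -0.36 (limma adjusted p 0.00387, 0.253 and 0.0760). Kcnj9, a G-protein-gated potassium channel gene, rose by 0.57 ± 0.12 on its brighter probe set, with 10 of 13 alternatives past the threshold, while its other probe set changed by -0.21 ± 0.17 (limma adjusted p 0.375). None of the 3 genes tested on MG-U74B passed. The shares on MG-U74A lie near those of all tested probe sets for rises (23.9%) and above them for falls (29%), and no test of the list was made.

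Of the genes that store and pump calcium, 5 of 8 tested on MG-U74A fell, 3 missed the threshold and none rose, for a median of -0.72, beside the same 29% of all tested probe sets. That list was not tested either. Stim1, which senses an empty calcium store, read 69.3 and 56.6 on the knock-out arrays, against 829 and 699 on the wild type arrays, and fell by 3.16 ± 0.14 (limma adjusted p 0.000366). Atp2a2, the pump that refills the endoplasmic reticulum, read 39.2 and 2.60 in knock-out, against 495 and 466 in wild type, and fell by 3.58 ± 0.45; its knock-out readings too were near the floor, and all 13 alternatives passed. Slc8a1, the sodium and calcium exchanger, fell by 1.10 ± 0.24 and passed in 9 of 12 alternatives. On MG-U74B, where 8.59% of all tested probe sets rose, 2 of 7 rose and none fell, with a median of 0.45. Those were Pln, phospholamban, an inhibitor of that pump known from heart and smooth muscle, which read 256 and 293 on the knock-out arrays and -20.4 and -2.90 on the wild type arrays, and Itpr2, a calcium release channel of the store. Both wild type readings of Pln were below 0, so it was tested only because of its knock-out level, and it counts among the 2 that rose. Pln passed in 9 and Itpr2 in 7 of 13 alternatives.

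Among calcium sensors and kinases, 3 of 11 tested genes fell on MG-U74A and 2 of 10 on MG-U74B, with none rising and medians of -0.63 and -0.15. On MG-U74A the kinase gene Camk2b fell by 1.89 ± 0.06, the synaptotagmin gene Syt4 fell by 1.98 ± 0.17 and the granule priming gene Cadps fell by 2.09 ± 0.25. Syt4 read 62.7 and 47.1 on the knock-out arrays, against 270.5 and 309.3 on the wild type arrays. Its knock-out mean of 54.9 lay below the limit for testing, so it was tested only because of its wild type level. On MG-U74B the 2 that fell were Rcan2, a calcineurin regulator, and the kinase gene Camkk2, which fell by 1.05 ± 0.24. Rcan2 read -132.6 and 45.3 on the knock-out arrays, against 406 and 466.5 on the wild type arrays, so it was tested only because of its wild type level, and its log2 change ranged from -4.77 to -2.71 over 13 alternatives. Rcan2 and Camkk2 each passed in 6 of those 13. On MG-U74A, 3 of 11 is near the 29% of all tested probe sets that fell, and on MG-U74B 8.87% of them fell.

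**Figure D4:**
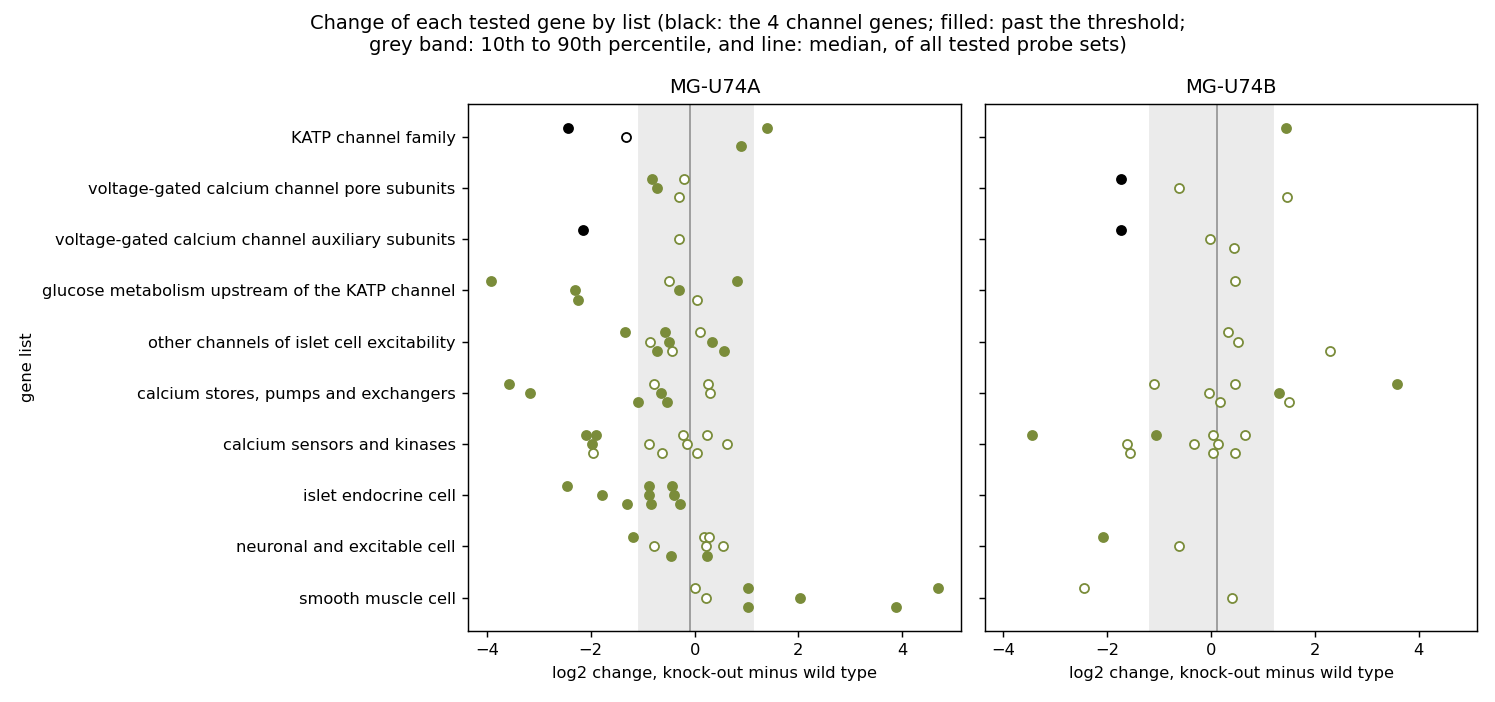
Log2 change, knock-out minus wild type, of each tested gene by list and array type, filled where past the threshold and black for the 4 channel genes. The grey band spans the 10th to 90th percentile of all tested probe sets, -1.07 to 1.12 on MG-U74A and -1.18 to 1.19 on MG-U74B.

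The labelled tissue was checked against its markers. All 9 islet endocrine markers tested on MG-U74A fell, with a median log2 change of -0.88, beside 29% of all tested probe sets that fell there. Ins2, which encodes insulin, read 29625 and 26558 on the knock-out arrays, against 33665 and 34049.8 on the wild type arrays. This was its brighter probe set, which fell by 0.27 ± 0.06. The dimmer Ins2 probe set read 7375 and 5244 in knock-out, against 11946 and 12017 in wild type. Its log2 change was larger, at -0.94 ± 0.17 (limma adjusted p 0.0139). Chga, a granule protein of endocrine cells, fell by 2.46 ± 0.06, Scg2 fell by 1.79 ± 0.16, Pcsk1 fell by 1.30 ± 0.07, and Gcg, glucagon, fell by 0.88 ± 0.07. The 9 markers summed to 87736 to 96750 on the knock-out arrays and 142596 to 143314 on the wild type arrays, a 1.55-fold higher wild type sum, and none was at or below 0 on both arrays of a genotype. The part of endocrine cell content in the fall of the channel genes was not tested.

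Markers of other cells in the islet preparation moved as well, on MG-U74A beside 29% of all tested probe sets falling and 23.9% rising. The 7 acinar markers on MG-U74A summed to 5099 to 5640 in knock-out and 38115 to 38571 in wild type, and 6 of 7 tested fell. Of the lymphocyte markers 6 of 9 tested rose, with sums over 12 genes of 21235 to 22276 in knock-out and 5491 to 5538 in wild type. Cd79a, a B cell antigen receptor subunit, was at or below 0 on both wild type arrays, and Cd3e on all 4 arrays. Of the macrophage and dendritic cell markers 11 of 12 tested rose, with sums over 14 genes of 13170 to 13370 in knock-out and 3757 to 3995 in wild type.

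Fibroblast and stellate cell markers summed over 12 genes to 20042 to 20945 in knock-out and 7610 to 7687 in wild type, with 9 of 12 tested rising and 2 falling. Col1a2 was counted as a fall by its brightest probe set, with a log2 change of -0.34 ± 0.05 (limma adjusted p 0.00918). The dimmer Col1a2 probe set went the other way, at 1472 and 1555 in knock-out and 139 and 129 in wild type. Its log2 change was 3.27 ± 0.07 (limma adjusted p 0.000101). The neuronal and excitable cell markers, whose cells also use these channels, summed over 10 genes to 2339 to 2534 in knock-out and 2441 to 2692 in wild type, so these sums overlapped. Of these 8 were tested on MG-U74A, where Snap25, a protein of vesicle release, fell by 1.18 ± 0.09, Stmn2 fell by 0.46 ± 0.11 and Tubb3 rose by 0.23 ± 0.06. On MG-U74B 1 of 2 tested markers fell, Nefm, beside 8.87% of all tested probe sets. The brightest Snap25 probe set there was at or below 0 on both arrays of each genotype. Stmn2 passed in 10, Tubb3 in 7 and Nefm in 5 of 13 alternatives. Duct markers gave 2 rises and 3 falls among 7 tested, and endothelial markers 6 rises and 1 fall among 10. Over all tested probe sets of MG-U74A, 23.9% rose and 29% fell. The part of any of these cell types in the change of the channel genes was not tested.

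The probe sets whose pattern was most like that of each channel gene were ranked by the distance over the 4 arrays between log2 values centred on their own mean. Nearest to Abcc8 were Ang, at a distance of 0.0265, Siah2, Pkdcc, Atf5 and Tspyl4, at 0.154, among 6737 candidates, of which 59 lay within 0.5. Nearest to Kcnj11 were Gstm5, at 0.131, Mapre3, Rev3l, Foxk2 and Impact, with 25 within 0.5. Nearest to Cacna2d1 on MG-U74A were Inpp5j, at 0.0526, Abhd8, Tpd52l1, Gfi1 and Zfp777, with 35 within 0.5.

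On MG-U74B the nearest to Cacna1d were Gpd2, at 0.140, Shmt1, Vapb, Mboat2 and Kif5c, with 89 of 6947 within 0.5. Nearest to Cacna2d1 there were Malat1, at 0.0749, Cnot6l, Slc35f5, Cpeb4 and Lpgat1, with 177 within 0.5. These distances rest on 4 arrays of 2 genotypes, and Kcnj11, whose knock-out arrays differ, had the fewest neighbours within 0.5.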

How the data were processed

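Intensities of 8 arrays were used as the authors deposited them, 1 per probe set. Without the highest and lowest 2%, their mean as deposited was 250.2 on each MG-U74A array and 250.1 on each MG-U74B array. The software is not given in the sources read here. Each array was multiplied by 1 factor to a common mean, values below 0 were set to 0, and 25 was added before log2. Genotypes were compared per array type with limma 3.58.1 in R 4.3.3 (lmFit, eBayes with a trend), two-sided, Benjamini-Hochberg adjusted over all tested probe sets. The 66 control probe sets per type were left out. Lists used each gene's brightest tested probe set, and named up to 4 genes past the threshold whose genotypes did not overlap, by size of change. The alternatives were the constant, the limit on low values, the normalization, the variance model, a replicate block, leaving out arrays and a generalised logarithm. Limma was tested on simulated data. Members and lists were chosen with earlier results of these data known. The targeted gene is not reported here, so genotypes are as labelled. Promoter windows came from RefSeq (GRCm38.p6) and were given for 2 of the 4 genes.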

Additional observations from a re-analysis of the deposited data

How the results depend on the processing

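Every alternative that tested them kept the direction of the 5 channel probe sets. On MG-U74A 2 of 3 fell; with the constant at 0.25 of its size 1 of 3 did, and under the stricter limit 1 of 2, where Cacna2d1 was not tested. Leaving out single arrays gave 1 to 3 of 3 on MG-U74A and 0 to 1 of 2 on MG-U74B, against 2 of 2. Over all probe sets limma called 3974 on MG-U74A and 2264 to 4097 without single arrays. On MG-U74B it called 1372, but 764 with no limit on low values, 638 with no variance trend and 0 to 538 without single arrays. Without wild type replicate 1 or 2 it called 0 there, with 1873 and 1817 at an unadjusted p under 0.05; no other tool was run. Fewer arrays leave fewer residual degrees of freedom. With the replicate number as a block, limma called 3628 and 1207 probe sets and changed no call of the channel genes. Same-numbered arrays deviated together at a correlation of only 0.024 and 0.032. The labels state no pairing by replicate number, and a low correlation cannot exclude one with small effects. The generalised logarithm was chosen after seeing the data and changed no call of the channel genes. With 2 arrays a genotype, precision is limited by their number, and values near 0 carry no usable fold change.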
